A study of Mus musculus with 3 samples.

Results

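The leukocyte integrins described here are 10 of the 32886 gene columns in a single-cell count table of immune cells from healthy mouse kidneys: the alpha subunits Itgax, Itgam, Itgal, Itga4, Itga6, Itgae and Itgav, and the beta subunits Itgb1, Itgb2 and Itgb7. The rule names them as subunits of the family and uses no measured value, though earlier results of these data were known when they were chosen. All mice were untreated wild-type C57BL/6J males aged 10 weeks. Kidneys were cut by hand into 3 regions, the cortex, the outer medulla (OM) and, innermost, the inner medulla (IM). Cells carrying CD45, a surface protein of blood-derived cells, were then sorted from each region and run on the 10x droplet platform. This was done at 3 facilities, Aachen, Bonn and Hamburg, giving 9 combinations of region and dataset, each called a library here, and the dataset was the replicate throughout. The cell barcodes carry 10 suffixes, 2 for each region of Aachen, 1 for each region of Bonn and 1 for all of Hamburg, so they do not show whether the Hamburg regions were separate 10x libraries. The sources used here do not give the number of mice behind a library, so the p-values below rest on libraries and not on mice. edgeR estimates the spread of a gene with the help of all other genes. Its p-values therefore do not measure the gene's own spread between datasets alone. Facility, kit version (2 in Aachen, 3 in Bonn and Hamburg) and mice cannot be told apart.

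An integrin is a pair of 1 alpha and 1 beta subunit that holds a cell to other cells or to matrix. Itgb2 (CD18) pairs with Itgal (CD11a) to form LFA-1, which binds ICAM proteins on other cells, with Itgam (CD11b) to form Mac-1, which also binds complement fragments, and with Itgax (CD11c), a subunit widely used to tell dendritic cells and some tissue macrophages apart. Itga4 pairs with Itgb1 to form VLA-4, the receptor for VCAM-1 and fibronectin, or with Itgb7 to form the gut-homing receptor for MAdCAM-1. Itgae (CD103) pairs with Itgb7 and binds E-cadherin on epithelium. Itga6 with Itgb1 binds laminin, and Itgav, here a partner of Itgb1, binds matrix proteins and latent TGF-beta. A transcript level says nothing of the protein at the surface or of whether it is in its active form.

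The gene bodies lie on 6 chromosomes of build GRCm38. Itgal (ENSMUSG00000030830, chromosome 7, 127296260 to 127335138), Itgam (ENSMUSG00000030786, chromosome 7, 128062640 to 128118491) and Itgax (ENSMUSG00000030789, chromosome 7, 128129547 to 128150657) follow each other on the plus strand. The end of Itgam is 11055 bases from the start of Itgax, and the end of Itgal is 727501 bases from the start of Itgam. Itga6 (71745616 to 71858416), Itga4 (79255426 to 79333123) and Itgav (83724397 to 83806916) are on the plus strand of chromosome 2, Itgb2 (77530252 to 77565708) on that of chromosome 10 and Itgae (73090583 to 73147446) on that of chromosome 11. Itgb1 (128685654 to 128733200) is on the plus strand of chromosome 8 and Itgb7 (102215995 to 102231944) on the minus strand of chromosome 15.

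Itgax passed the test between regions given below and its neighbour Itgam did not, a difference that was itself not tested, and the bases directly upstream of their annotated starts are shown. They come from RefSeq's promoter table for GRCm38.p6, which held 6 of the 10 members, and end at the last base before the gene. Capitals mark the motifs searched on both strands: TGAGTCA (AP-1), GAGGAA or its complement TTCCTC (the core bound by PU.1) and TGTGGT (RUNX).
Itgax, chr7:128129300-128129546, plus strand: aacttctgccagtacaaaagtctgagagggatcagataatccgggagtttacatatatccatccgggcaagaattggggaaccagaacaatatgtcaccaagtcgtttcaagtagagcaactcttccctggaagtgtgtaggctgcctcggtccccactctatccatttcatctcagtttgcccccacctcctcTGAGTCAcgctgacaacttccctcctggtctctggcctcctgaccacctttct
Itgam, chr7:128062390-128062639, plus strand: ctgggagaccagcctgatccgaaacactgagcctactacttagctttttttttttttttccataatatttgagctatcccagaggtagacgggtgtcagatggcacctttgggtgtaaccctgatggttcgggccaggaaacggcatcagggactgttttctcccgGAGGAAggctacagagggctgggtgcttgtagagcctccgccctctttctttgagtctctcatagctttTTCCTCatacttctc
The Itgax window held 1 AP-1 match, beginning 53 bases before the start, and none of the other motifs. The Itgam window held PU.1 core matches beginning 84 and 15 bases before the start, and no AP-1 or RUNX match. Of the 32851 promoters in the table, 4.46% held the AP-1 letters, 23.3% the PU.1 core and 14.05% the RUNX letters. These are matches of letters and nothing was measured on them.

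The table held 20266 cells in 23 clusters, named here as the authors named them. Totals ran from 2122809 to 15267126 unique molecular identifiers (UMIs, each standing for 1 captured transcript) per library, over 621 to 3677 cells. Median UMIs per cell were 887 in Aachen, 3290.5 in Bonn and 2944 in Hamburg. Each of 9 cell classes built from the clusters had the highest summed level of its own marker list. The 14 macrophage markers, for example, summed to 1065 UMIs per 10000 in resident macrophages, of which Cd74 alone made up 710. The next class was cDC2 at 445 and the lowest was T cells at 17.1. In all, 216 barcodes occurred in 2 libraries and 3 in 3 libraries, which made 441 cells, 116 of them resident macrophages. Without these cells the calls of members named below all held, with Itgax at -1.44 and Itgal at -1.13 in resident macrophages, Itgax at -1.54 in Macrophage_1 and Itga4 at 0.77 in NK cells (log2, medulla against cortex). Of the other calls, those for OM and IM in Macrophage_1 stood at -1.22 and -1.86 and that for OM in NK cells at 1.04.

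Levels are given as UMIs of a gene per 10000 UMIs of the summed cells of a cluster, as mean ± SD over the datasets with 20 or more of its cells (n = 3 unless said). They describe the clusters and carry no test, since the clusters were made from the same cells. Short 3' reads count molecules and are not scaled by length, so levels are compared between clusters, not between genes. The cluster called Undefined had 20 or more cells in Bonn alone and is left out.

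**Figure D1:**
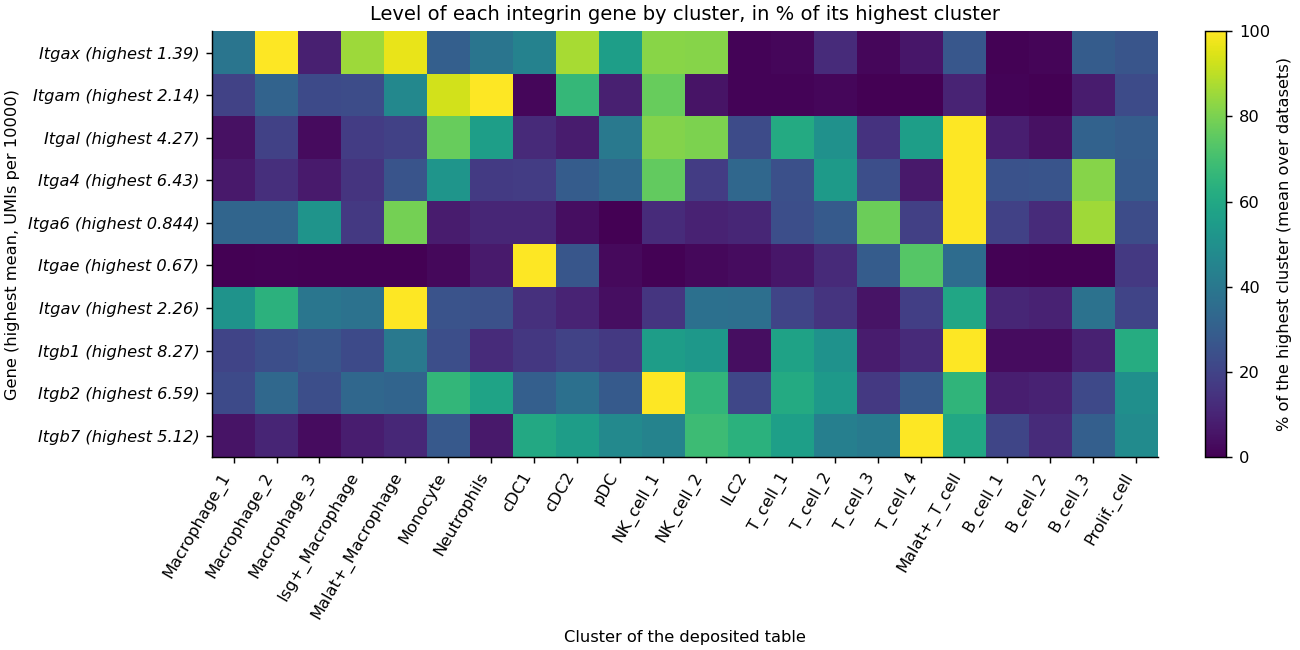
Mean level of each integrin (rows) in each cluster (columns) as a percentage of the gene's highest cluster, which is given in UMIs per 10000 beside the gene, so that colors compare clusters within a row and not genes. Yellow marks the highest cluster of each row: a macrophage cluster for Itgax (1.39) and Itgav (2.26), neutrophils for Itgam (2.14), Malat+_T_cell for Itgal, Itga4, Itga6 and Itgb1, cDC1 for Itgae, NK_cell_1 for Itgb2 and T_cell_4 for Itgb7.

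Among the partners of Itgb2, Itgax was highest in Macrophage_2, at 1.39 ± 0.683 UMIs per 10000. It read 0.599 in Aachen, 1.80 in Bonn and 1.77 in Hamburg there. Malat+_Macrophage (1.34 ± 1.09), cDC2 (1.21 ± 0.567), Isg+_Macrophage (1.18 ± 0.820), NK_cell_1 (1.14 ± 0.267) and NK_cell_2 (1.14 ± 0.483) followed, and none of these 6 clusters was set apart from its neighbour among them beyond the spread over datasets. NK_cell_2 lay above the next cluster, pDC (0.780), in 2 of 2 datasets. Itgax was therefore about as high in NK cells as in the conventional dendritic cells it is often used to mark, and cDC1 stood lower, at 0.615 ± 0.335. The resident macrophage clusters themselves differed widely: Macrophage_1 had 0.541 ± 0.362 and Macrophage_3 0.123 ± 0.120, with Macrophage_2 above Macrophage_1 and Macrophage_1 above Macrophage_3 in 3 of 3 datasets. B_cell_1 had 0.00953 ± 0.00844 and T_cell_1 0.0220 ± 0.00977.

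Cell by cell, with every cell thinned to 500 UMIs, at least 1 Itgax UMI was found in 38 of 570 Macrophage_2 cells of Bonn, 6.67% (95% exact binomial interval 4.76 to 9.04), against 9 of 339 Macrophage_1 cells, 2.65% (1.22 to 4.98). B_cell_1, which should lack the gene, had 0 of 1624 such cells, which allows a share of up to 0.23% of cells with a UMI at this thinned depth. With all UMIs kept the shares were 48.8%, 18.3% and 0.25%, at median depths of 4327.5, 5622 and 2746.5 UMIs per cell. In Hamburg, where values were not whole and were rounded within each cell before thinning, the shares were 6.70% (3.71 to 10.98) in Macrophage_2 and 3.96% (2.44 to 6.05) in Macrophage_1. In Aachen they were 2.04% (1.19 to 3.25) and 0.55% (0.20 to 1.20). These intervals cover counting error only.

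Itgam was highest in neutrophils (2.14 ± 1.25) and monocytes (1.99 ± 1.14), with NK_cell_1 at 1.64 ± 1.06 and cDC2 at 1.42 ± 0.581. It was at 0.110 ± 0.0556 in NK_cell_2, so the NK clusters, which were alike in Itgax, stood apart in Itgam. The resident macrophage clusters were close together, at 0.679 ± 0.486 in Macrophage_2, 0.479 ± 0.261 in Macrophage_3 and 0.419 ± 0.195 in Macrophage_1. Itgal was highest in Malat+_T_cell (4.27 ± 2.45), NK_cell_1 (3.47 ± 1.67), NK_cell_2 (3.42 ± 1.19), monocytes (3.28 ± 1.74) and T_cell_1 (2.61 ± 1.09), with neutrophils (2.38 ± 0.844) between T_cell_4 (2.38 ± 1.04) and T_cell_2 (2.15 ± 0.949). Lymphoid clusters reached far down the order too, with T_cell_3 at 0.619 ± 0.289, B_cell_1 at 0.362 ± 0.192 and B_cell_2 at 0.187 ± 0.173. Its level was 0.819 ± 0.837 in Macrophage_2, 0.196 ± 0.0692 in Macrophage_1 and 0.125 ± 0.0491 in Macrophage_3. The shared beta subunit Itgb2 was highest in NK_cell_1, at 6.59 ± 3.83, above monocytes (4.36 ± 2.59) in 3 of 3 datasets, and lowest in B_cell_1 (0.547 ± 0.160).

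Among the partners of Itgb1, Itga4 was led by Malat+_T_cell (6.43 ± 3.85), B_cell_3 (5.26 ± 4.48, n = 2) and NK_cell_1 (4.88 ± 2.59). NK_cell_2 had 1.13 ± 0.622, so Itga4 split the NK clusters in the same sense as Itgam. T_cell_2 reached 3.49 ± 1.62 and T_cell_4 0.448 ± 0.150, the latter about as low as Macrophage_1 (0.443 ± 0.120). Itgb1 was highest in Malat+_T_cell (8.27 ± 6.89), Prolif._cell (5.12 ± 2.53) and T_cell_1 (4.77 ± 2.58), and lowest in B_cell_1 (0.264 ± 0.133), B_cell_2 (0.266 ± 0.235) and ILC2 (0.319 ± 0.227). Over all B cells Itgb1 was at 0.276 ± 0.139 against 3.45 ± 1.502 over all T cells, while Itga4 was at 1.74 ± 0.792 against 2.09 ± 0.837. Itgav was highest in Malat+_Macrophage (2.26 ± 2.23) and Macrophage_2 (1.45 ± 1.13), followed by Malat+_T_cell (1.34 ± 0.494), Macrophage_1 (1.16 ± 0.757) and Macrophage_3 (0.891 ± 0.514). Itga6 was highest in Malat+_T_cell (0.844 ± 0.497), followed by B_cell_3 (0.724 ± 0.796, n = 2), Malat+_Macrophage (0.668 ± 0.328) and T_cell_3 (0.654 ± 0.216), with 0.438 ± 0.287 in Macrophage_3.

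Itgb7 was highest in T_cell_4, at 5.12 ± 1.10, where the datasets read 3.93 in Aachen, 5.31 in Bonn and 6.11 in Hamburg, each above NK_cell_2 of the same dataset (3.52 ± 0.721). ILC2 (3.27 ± 1.65), cDC1 (3.09 ± 0.329) and cDC2 (2.84 ± 0.775) were next among the innate clusters, and Macrophage_3 was lowest (0.171 ± 0.0438). Its partner Itgae was highest in cDC1 (0.670 ± 0.408), from 8 UMIs in Aachen, 62 in Bonn and 123 in Hamburg, and in T_cell_4 (0.492 ± 0.131), from 2, 10 and 20 UMIs. Resident macrophages as a class had 0.00249 ± 0.00264. T_cell_4 therefore combined the highest Itgb7 and the second highest Itgae with low Itga4 and Itgb1.

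Over the 20 clusters with 20 or more cells in every dataset, the known partners varied together to different degrees. Pearson's r of log2 levels, averaged over the datasets, was 0.75 for Itgal and Itgb2, 0.55 for Itgae and Itgb7, 0.46 for Itgav and Itgb1, 0.45 for Itga4 and Itgb7, 0.44 for Itgam and Itgb2, 0.43 for Itgax and Itgb2, 0.36 for Itga4 and Itgb1 and 0.29 for Itga6 and Itgb1. The points share libraries and depth, so these values are a description. By the same measure over 6014 genes, the genes most like each member were Gsap, Lrrk1 and Slamf7 for Itgax (0.79 to 0.76), Sdcbp, Tyrobp and Fgr for Itgam (0.84 to 0.82), and Lrrfip1, Sephs2 and Cdc42ep3 for Itgal (0.85 to 0.81). They were Ikzf1, Myh9 and Ptpn11 for Itga4 (0.73 to 0.72), Cd4, Tet3 and Rmnd5a for Itga6 (0.67 to 0.65), Lars, Mrps28 and Avpi1 for Itgae (0.60 to 0.58), and Tanc2, Lpar6 and Cltc for Itgav (0.81 to 0.79). For the beta subunits they were Prex1 and Atp8b4 for Itgb1 (0.82 and 0.78), Lrrfip1, Zyx and Selplg for Itgb2 (0.83 to 0.80), and Anxa6, Nup210 and Sept9 for Itgb7 (0.89 to 0.85).

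The next comparison asked whether the integrins of resident macrophages (Macrophage_1, Macrophage_2, Macrophage_3 and Isg+_Macrophage, 5367 cells, 168 to 1952 per library) differed between medulla and cortex. Itgax and Itgal were called lower in the medulla, Itgal not in every dataset, and no member was called higher. In cortex Itgax read 0.660 UMIs per 10000 in Aachen, 1.85 in Bonn and 1.69 in Hamburg. In the same order it read 0.0892, 0.823 and 0.950 in OM, and 0.427, 0.382 and 0.775 in IM. All 6 medullary libraries lay below the cortex of their own dataset, although the regions overlapped across datasets, the Aachen cortex value (0.660) lying below both Hamburg medullary values and Bonn OM. The underlying UMIs were 50, 545 and 161 in cortex, 16, 75 and 156 in OM, and 29, 143 and 76 in IM. The log2 fold change of medulla (OM and IM averaged) against cortex was -1.46 ± 0.26 (SE), adjusted p = 0.0174 by edgeR's quasi-likelihood test with dataset as a block, Benjamini-Hochberg over 8228 genes.

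Itgal read 0.132, 0.577 and 1.12 UMIs per 10000 in the cortex of Aachen, Bonn and Hamburg, 0.0780, 0.220 and 0.526 in OM, and 0.280, 0.198 and 0.536 in IM. Bonn and Hamburg were lower in both medullary regions, and Aachen, with 10, 14 and 19 UMIs, was higher in IM than in its cortex, so 5 of 6 medullary libraries lay below their cortex and the regions overlapped. The log2 fold change was -1.11 ± 0.23 with an edgeR adjusted p of 0.0342. Itgam, 11055 bases upstream of Itgax on the chromosome, read 0.238, 0.577 and 0.841 in cortex, 0.195, 0.648 and 0.590 in OM, and 0.162, 0.652 and 0.686 in IM. These regions overlapped in full, with 4 of 6 medullary libraries below their cortex, and the log2 fold change was -0.11 ± 0.16 (edgeR adjusted p = 0.92). The common beta subunit Itgb2 read 1.11, 3.26 and 1.80 in cortex, 0.719, 2.69 and 1.81 in OM, and 1.22, 2.27 and 1.78 in IM, at -0.22 ± 0.14 (edgeR adjusted p = 0.68).

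**Figure D2:**
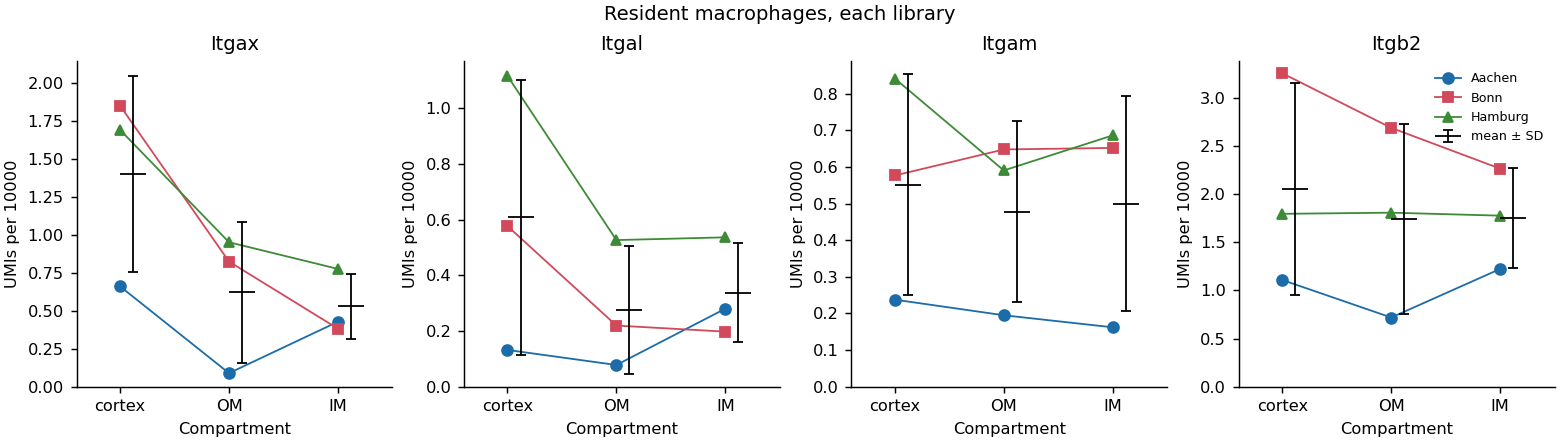
Levels of Itgax, Itgal, Itgam and Itgb2 (UMIs per 10000 UMIs) in resident macrophages of each library, by region. Points and joining lines are datasets, and black marks are the mean ± SD over the 3 datasets, cut at 0. Every Itgax line falls from cortex to both medullary regions, while the Itgam and Itgb2 lines overlap between regions.

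Of the 10 members, 9 passed the filter on low counts in resident macrophages (Itgae did not), and 2 of these 9 passed the test, both lower, beside 1.23% of all 8228 genes. The median log2 fold change of the 9 was -0.41, against 0.0059 over all genes tested. Itgb7 had -0.92 ± 0.25 (edgeR adjusted p = 0.118), Itga4 -0.54, Itgav -0.41, Itga6 0.11 and Itgb1 0.06, none past the test. Yet Itgav lay below its own cortex in 6 of 6 medullary libraries, as Itgax did. Itga4 did so in 5 of 6, as Itgal did, so this count does not set the called members apart. With a dataset or library left out Itgb7 ran from -1.25 (without Hamburg cortex) to -0.30 (without the Bonn dataset) and Itga4 from -0.69 (without the Aachen dataset) to -0.10 (without the Bonn dataset). The mean log2 ratio of Itgb7 over all cells was 0.12 in Hamburg. Against cortex, OM alone gave -1.36 for Itgax (edgeR adjusted p = 0.054) and -1.24 for Itgal (0.060), and 0 of 9 members were called beside 0.826% of all genes, with 5 members under an unadjusted 0.05. IM alone gave -1.55 for Itgax (0.072) and 0 of 9 called beside 0.0851%, again with 5 under an unadjusted 0.05. OM against IM gave 0 of 9 called, 0 members under an unadjusted 0.05, and 0% of all genes, of which 260 were under it. DESeq2 on the same sums called 1 member, Itgax at -1.38 with an adjusted p of 0.0351, and gave Itgal -0.95 and 0.41. Itgax lost its call without the Hamburg dataset (-1.70, 0.12), Bonn cortex (-1.25, 0.15), Hamburg OM (-1.56, 0.051) or Hamburg IM (-1.48, 0.052), and Itgal kept its call only without the Aachen dataset, Aachen cortex or Aachen IM.

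Markers of other cells also differed between regions inside the macrophage class, though not alike in every dataset. The 8 B cell markers summed to 1.12 to 10.0 UMIs per 10000 in cortex, 1.34 to 4.11 in OM and 1.14 to 5.34 in IM, and of the 5 tested Cd79b (-0.79) and Igkc (-1.99) fell. The 8 T cell markers summed to 0.157 to 2.51 in cortex, 0.139 to 0.702 in OM and 0.113 to 1.75 in IM, with 0 of 5 called and a median log2 fold change of -1.39. The 8 NK cell markers, none of which could be tested, summed to 0.106 to 0.515 in cortex and to at most 0.117 in OM and 0.176 in IM. The 8 monocyte markers summed to 1.56 to 6.41 in cortex, 0.524 to 2.73 in OM and 1.49 to 2.97 in IM, with 0 of 3 called and a median of -1.06. Bonn cortex held the highest sum of each of these lists. In Aachen the B cell sum was 1.12 in cortex, 1.34 in OM and 1.14 in IM, and in Hamburg 3.48, 3.03 and 2.99. From cortex to IM the T cell sum of Aachen rose from 0.752 to 1.75. The monocyte sum rose from 1.56 to 2.03 in Aachen and from 2.67 to 2.97 in Hamburg. Kidney epithelial markers were higher in the medulla, at 0.270 to 0.607 in cortex against 2.85 to 4.69 in OM and 0.958 to 8.28 in IM. The 7 cDC1 markers summed to 60.7 to 84.6 in cortex, 110 to 198 in OM and 95.6 to 166 in IM, higher in every medullary library than in any cortex. Cst3, which macrophages also express, made up 119.6 UMIs per 10000 of this list over the class and was the 1 called of 6 tested (0.87), while Clec9a stood at -0.35 and Wdfy4 at -0.13. The cDC2 markers other than Itgax summed to 1.12 to 4.38 in cortex, 1.32 to 4.52 in OM and 1.33 to 4.89 in IM, and none of the 4 tested was called. Of the macrophage markers Trem2 (1.496) and Apoe (0.83) rose. Over the class as a whole no gene of the B cell, T cell, NK cell, monocyte and epithelial lists was at 0. With called doublets left out, along with any cell in which T and B cell markers reached 2 UMIs (4219 cells remained), Itgax was at -1.43 (edgeR adjusted p = 0.0041) and Itgal at -1.02 (0.067).

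The make-up of the class also differed by region. Macrophage_2, the cluster highest in Itgax and Itgal of the main 3, was 50.5% ± 28.4 (SD, n = 3) of resident macrophages in cortex, 23.1% ± 7.80 in OM and 29.2% ± 27.3 in IM. Macrophage_3, the lowest, was 2.35% ± 4.07, 36.9% ± 12.1 and 19.9% ± 21.3. Bonn cortex stood apart, with 83.3% Macrophage_2 and 4.45% Macrophage_1. Aachen IM went the other way from the averages, with 60.6% Macrophage_2 against 35.5% in Aachen cortex, and held 1.17% Macrophage_3. With Macrophage_1 and Macrophage_2 given equal weight in every library, the mean log2 ratio of medulla to cortex was -0.89 for Itgax (-1.35 in Aachen, -0.90 in Bonn, -0.42 in Hamburg), against -1.31 over all cells. For Itgal it was -0.29 (0.14, -0.47 and -0.55), against -0.70 over all cells (0.44, -1.47 and -1.07). Within Macrophage_1 Itgal averaged 0.187 UMIs per 10000 in cortex, 0.135 in OM and 0.244 in IM. There it lay below its own cortex in 3 of 6 medullary libraries.

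Within Macrophage_1 (1996 cells), Itgax was lower in the medulla in every dataset. It read 0.510, 1.99 and 1.46 UMIs per 10000 in the cortex of Aachen, Bonn and Hamburg, 0.0827, 0.709 and 0.844 in OM, and 0.182, 0.325 and 0.595 in IM, with Bonn cortex resting on 24 cells and 20 UMIs. The Bonn and Hamburg cortex values lay above all 6 medullary values, and the Aachen cortex value lay among them. The log2 fold change was -1.55 ± 0.25 with an edgeR adjusted p of 0.000961, and Itgax was the 1 member called of 9 tested, beside 0.559% of 6261 genes. Of the 9, 4 were under an unadjusted 0.05. Itgb7, not called, read 0.358 to 0.497 in cortex and 0.116 to 0.325 in the medulla, without overlap. Itgb7 and Itgav also lay below their own cortex in 6 of 6 medullary libraries. Against cortex, OM alone gave -1.26 for Itgax (edgeR adjusted p = 0.0248), the 1 call of 9 beside 0.527%, and IM alone -1.84 (0.0023), the 1 call of 9 beside 0.240%. The medulla call held in 12 of 12 fits without a dataset or library, with log2 fold changes from -2.18 to -1.29. It was lost without doublets and cells with T or B cell markers (-1.17, edgeR adjusted p = 0.11), as were the calls for OM (-1.08, 0.21) and IM (-1.26, 0.53). With cells thinned to 500 UMIs the OM (-2.41, edgeR adjusted p = 0.21) and IM (-1.47, 0.87) calls were lost too, and without TMM scaling that for OM (-1.25, 0.057). DESeq2 gave -1.69 with an adjusted p of 0.0103 for the medulla, but its adjusted p-values for OM (0.098) and IM (0.080) alone did not pass. The OM call was also lost in 7 of the 12 fits without a dataset or library, without the Aachen, Bonn or Hamburg dataset (-1.04, -1.17 and -1.92), Aachen cortex (-1.10), Aachen OM (-1.01), Hamburg OM (-1.65) or Hamburg IM (-1.26), and the IM call in 3, without the Bonn dataset (-1.40), Bonn IM (-1.42) or Hamburg IM (-2.21).

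Within Macrophage_2 (1680 cells), Itgax read 0.963, 1.86 and 1.84 in cortex, 0.332, 1.61 and 1.66 in OM, and 0.557, 1.48 and 1.84 in IM. Aachen alone showed a wide gap between regions. The log2 fold change was -0.34 ± 0.18 with an edgeR adjusted p of 1.0. No member was called of 9 tested, beside 0.0898% of 4452 genes, with 1 member, Itgal at -0.67 ± 0.22, under an unadjusted 0.05 (0.0046, adjusted p = 0.49) and 0 called by DESeq2. The medulla effect on Itgax in Macrophage_1 minus that in Macrophage_2 was -1.21 ± 0.32, with an edgeR p of 0.000561 that did not hold over all genes (adjusted p = 0.78). No gene passed for this difference, 0% of 5559, with 217 under an unadjusted 0.05. Macrophage_3 held 38 cortical cells, all from Bonn, and was not tested. Its Itgax read 0.787 in cortex, 0.392 in OM and 0.153 in IM in Bonn, 0.0925 and 0.141 in OM and IM of Hamburg, and 0.0120 in OM of Aachen from 1 UMI. In Isg+_Macrophage (273 cells) none of 6 members tested was called and none was under an unadjusted 0.05, beside 0.0545% of 1836 genes, with Itgax at -0.96 ± 0.52.

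**Figure D3:**
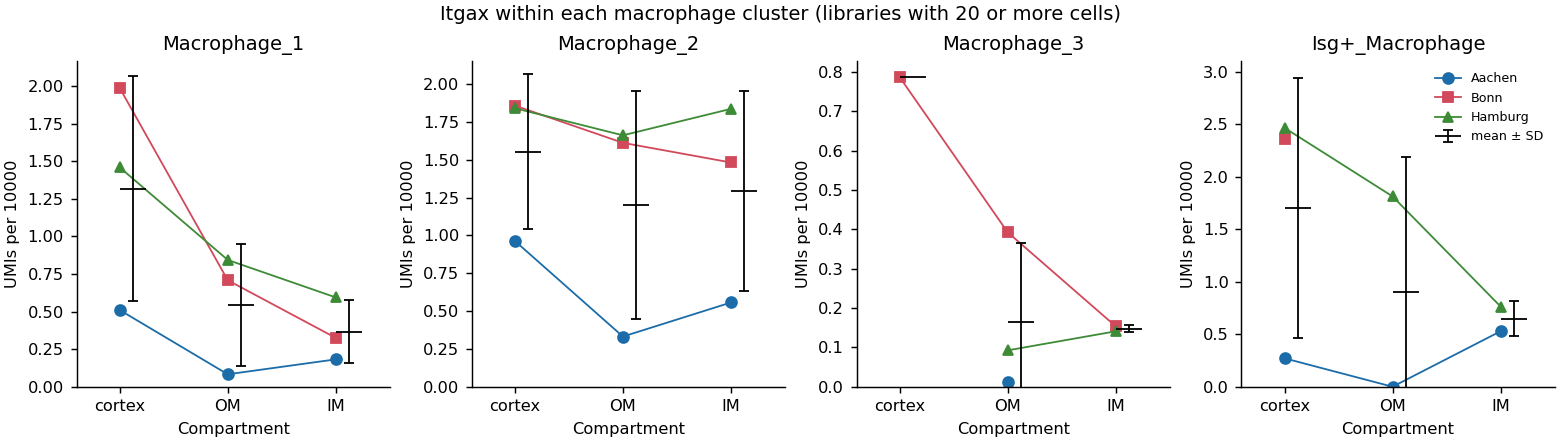
Itgax level (UMIs per 10000 UMIs) in Macrophage_1, Macrophage_2, Macrophage_3 and Isg+_Macrophage, by region, for libraries with 20 or more of the cells. Points and lines are datasets and black marks are the mean ± SD, cut at 0. In Macrophage_1 every dataset falls from cortex to medulla, in Macrophage_2 the Bonn and Hamburg lines are nearly level, and Macrophage_3 has a cortex point in Bonn alone.

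NK cells (1133 cells) showed a change in the other direction, in another subunit. Itga4 read 0.842 UMIs per 10000 in the cortex of Aachen, 4.56 in Bonn and 2.28 in Hamburg. In OM it read 2.08 in Aachen and 4.51 in Hamburg, and in IM 1.74, 7.23 and 2.91. All 5 medullary libraries fitted lay above the cortex of their dataset, while the regions overlapped across datasets. Bonn OM, with 19 NK cells and 4.71, fell under the minimum of 20 cells and was left out of the fit. The log2 fold change was 0.83 ± 0.17 with an edgeR adjusted p of 0.000595, and Itga4 was the 1 call of 8 members tested, beside 0.627% of 5904 genes. The median over the 8 was -0.06, against 0.0075 over all genes. OM alone gave 1.07 ± 0.22 (edgeR adjusted p = 0.000463), the 1 call of 8 beside 0.813%, and IM alone 0.59 ± 0.18 (adjusted p = 0.28). The unadjusted edgeR p-values of Itga4 (1.3e-06 for the medulla, 1.1e-06 for OM) are those of a normal curve at these estimates and SEs. The gene's own spread between libraries thus had little or no part in them. They cannot be set beside the p-values of resident macrophages, which were larger for a like ratio of estimate to SE.

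Itgam in NK cells was at 0.72 ± 0.24 (edgeR adjusted p = 0.19), with 1.40 in the cortex and 0.872 in IM of Bonn against 0.704, 1.76 and 1.36 in cortex, OM and IM of Hamburg. The other members of NK cells lay between -0.26 and 0.27. Among them Itgb7, at -0.25 and not called, lay below its own cortex in all 5 medullary libraries. DESeq2 called no member, with Itga4 at 0.84 and an adjusted p of 0.12. The Itga4 call was lost without the Hamburg dataset (0.94), Bonn cortex (0.082), Bonn IM (0.068), Hamburg cortex (0.42), Hamburg OM (0.39) or Hamburg IM (0.095), these being adjusted p-values, over log2 fold changes from 0.75 to 1.04. The OM call was lost with DESeq2 (adjusted p = 0.13), without the Hamburg dataset (0.88), Hamburg cortex (0.34), Hamburg OM (0.71) or Hamburg IM (0.18). It was also lost with cells thinned to 500 UMIs (log2 fold change 0.78, edgeR adjusted p = 0.79). Itgam passed without the Bonn dataset (1.14, adjusted p = 0.0062), Bonn cortex (0.025) or Bonn IM (0.019), and turned negative without the Hamburg dataset (-0.25) or Hamburg cortex (-0.19).

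The NK clusters changed in share alongside. NK_cell_1, the one high in Itga4 and Itgam, was 34.3%, 57.0% and 32.4% of NK cells in the cortex of Aachen, Bonn and Hamburg, 68.4% and 60.1% in OM of Aachen and Hamburg, and 64.6%, 68.3% and 50.7% in IM. Bonn OM, with 19 NK cells, went the other way, at 36.8%. Within NK_cell_1 Itga4 was at 0.49 ± 0.23 (edgeR adjusted p = 1.0) and 0 of 7 members were called, with 1 under an unadjusted 0.05, beside 0.145% of 3458 genes. Within NK_cell_2 it was at 0.39 ± 0.36 (adjusted p = 1.0), with 0 of 7 called, 0 under an unadjusted 0.05, beside 0.189% of 4772 genes. With both clusters weighted equally the mean log2 ratio was 0.61 (0.78, 0.66 and 0.39), against 0.76 over all NK cells. These ratios had no minimum of cells. The Bonn ratio thus includes Bonn OM, with 7 NK_cell_1 and 12 NK_cell_2 cells, and 13 NK_cell_2 cells of Bonn IM. Of the 8 NK cell markers, Gzma (0.86), Klra8 (0.86) and Eomes (0.82) rose in the medulla, and of the macrophage markers C1qc (0.97) and Cd74 (0.59) rose. Among markers of other cells, Cst3 of the cDC1 list (0.85) rose, and Cd7 of the cDC2 list (-0.61) and Cd28 of the T cell list (-0.72) fell. The 14 macrophage markers summed to 17.1 to 36.6 UMIs per 10000 in cortical NK cells, 14.3 to 62.7 in OM and 4.79 to 42.0 in IM. Without doublets and cells with macrophage markers Itga4 stood at 0.96 (edgeR adjusted p = 5.9e-05).

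**Figure D4:**
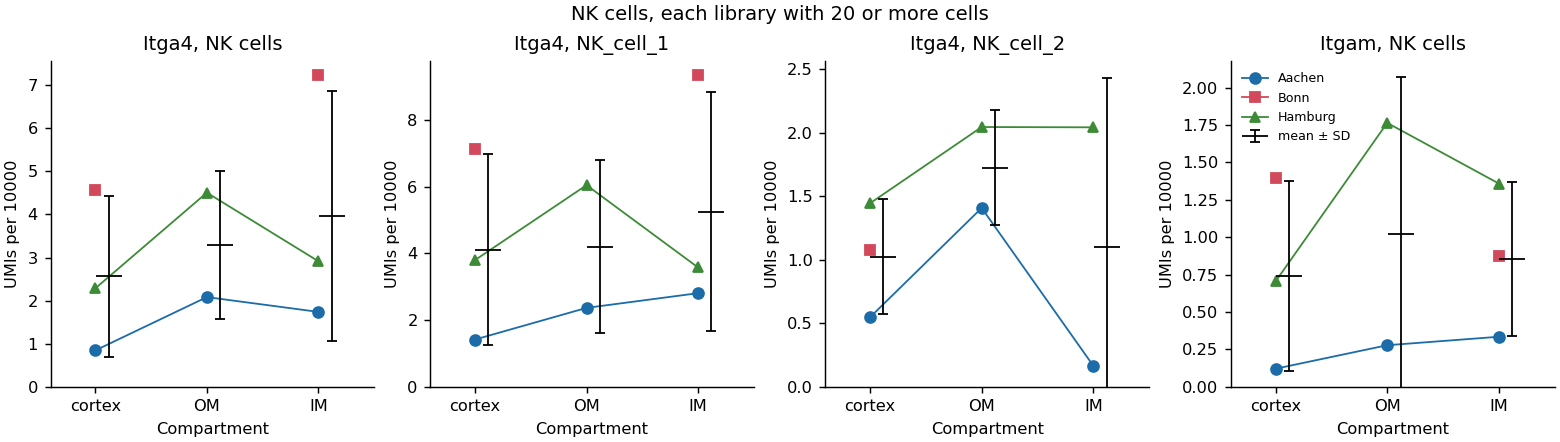
Level (UMIs per 10000 UMIs) of Itga4 in all NK cells, NK_cell_1 and NK_cell_2, and of Itgam in all NK cells, by region, for libraries with 20 or more of the cells. Points and lines are datasets and black marks are the mean ± SD, cut at 0. Over all NK cells each of the 5 medullary Itga4 points lies above its own cortex point, while in NK_cell_1 the Hamburg IM point (3.58) lies below it (3.80).

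In the other classes no member passed edgeR's test. T cells had 0 of 8 called beside 0.0117% of 8522 genes, with 2 under an unadjusted 0.05 (Itga4 at 0.36 and Itgav at 0.42) and members from -0.14 to 0.66. B cells had 0 of 7 beside 0.0353% of 8509 genes (-0.30 to 0.64), cDC2 0 of 7 beside 0.293% of 4430 (-0.47 to 0.31), and cDC1 0 of 7 beside 0.214% of 3275 (-0.37 to 0.54). Monocytes had 0 of 8 beside 0.312% of 5455 (-0.48 to 0.11), and ILC2 0 of 5 beside 0.299% of 2344 (-0.45 to 0.55). None of the members of these last 5 classes was under an unadjusted 0.05, and DESeq2 called none in any of the 6. Itgax in cDC2, the class it is used to mark, was at 0.31 ± 0.20, with 0.411, 1.23 and 1.33 in the cortex of Aachen, Bonn and Hamburg, 0.452, 1.11 and 1.73 in OM, and 0.852, 1.56 and 1.80 in IM. Itgae in cDC2 failed the filter on low counts, and is named because its counts stood out: 0, 1 and 1 UMIs in cortex, 0, 4 and 43 in OM, and 0, 27 and 12 in IM, in the order Aachen, Bonn and Hamburg.

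The medulla effect was then compared between resident macrophages and 4 other classes in a joint fit. The pairs with T cells, B cells and cDC2 were planned. The pair with NK cells, where Itga4 was called above, was not in that plan, nor was Macrophage_1 against Macrophage_2. For Itgax, macrophages minus the other class gave -1.76 ± 0.38 against cDC2 (edgeR adjusted p = 0.14) and -1.21 against NK cells (0.54). In T cells Itgax failed the filter on low counts, with 14, 35 and 60 UMIs in Aachen, Bonn and Hamburg, so no difference from them is given. For Itgal it gave -0.96 against T cells (0.22). None of these passed. Itga4 differed between macrophages and NK cells, at -1.33 ± 0.27 (edgeR adjusted p = 0.0459), the 1 member called beside 0.0733% of 9556 genes. No member was called against T cells, where no gene was (0% of 9652, with 688 under an unadjusted 0.05), against B cells (0.134% of 9709) or against cDC2 (0.0233% of 8566). All of these differences share the macrophage libraries. Both classes of a difference also come from the same libraries, and the fit had no term that pairs them. The joint fits were made with edgeR alone and were not repeated with DESeq2, with a library left out or with thinned cells. Over all resident macrophages the log2 ratio of Itga4, medulla to cortex, was 0.13 in Aachen, -0.95 in Bonn and -0.15 in Hamburg.

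**Figure D5:**
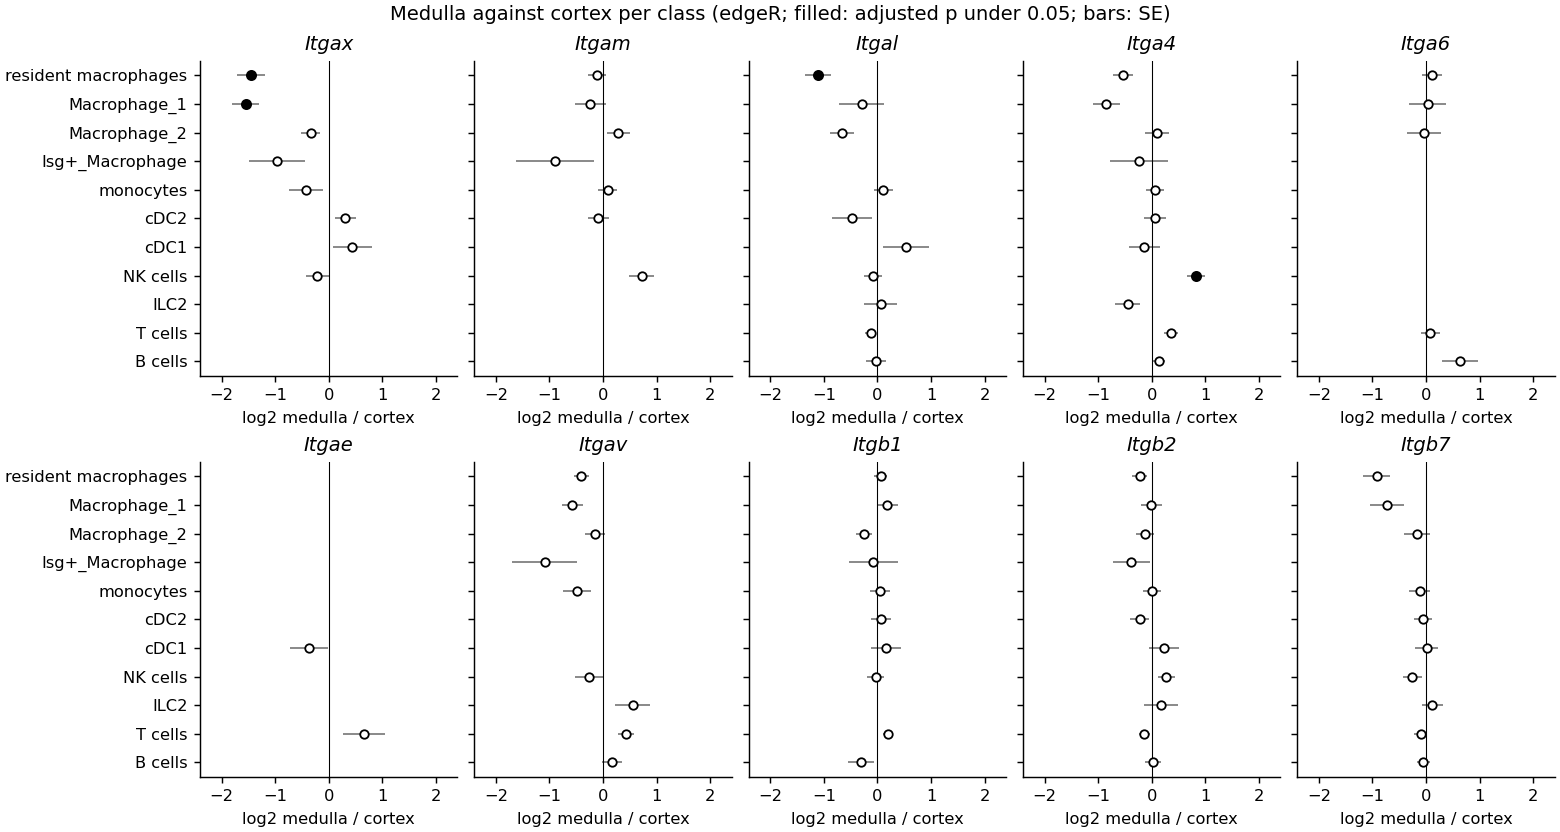
Log2 fold change of medulla against cortex with its standard error for each integrin tested, by cell class. Filled points passed an adjusted p of 0.05: Itgax in resident macrophages (-1.46) and in Macrophage_1 (-1.55), Itgal in resident macrophages (-1.11) and Itga4 in NK cells (0.83). Rows without a point were not tested.

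Other genes of integrin adhesion were counted in resident macrophages from 3 lists. Beside 1.23% called of all genes, of 16 other integrin subunits 4 passed the filter and 0 were called by edgeR, with a median log2 fold change of -0.31. Of 27 genes for integrin activation and its adaptors, 22 were tested and 1 was lower: Fgr, a Src-family kinase that acts downstream of leukocyte integrins, at -1.13 ± 0.24 (edgeR adjusted p = 0.035). The median of the 22 was -0.14, with the talin gene Tln1 at -0.08 and the kindlin gene Fermt3 at -0.18. Of 18 ligand genes, 12 were tested and 0 called, with a median of -0.21, Icam1 at -0.29 and Vcam1 at -0.12. The median of all genes was 0.0059. In NK cells, beside 0.627% of all genes, 0 of 3 other subunits and 0 of 22 activation genes were called, and of 5 ligand genes tested Thy1 fell, at -0.89 ± 0.17 (edgeR adjusted p = 0.000176).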

How the data were processed

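CD45+ cells from 3 kidney regions were sequenced at 3 facilities. The authors aligned reads to mm10 with Cell Ranger, filtered cells on genes detected (200 to 4000) and mitochondrial share (20% or less), integrated and clustered them with Seurat, and deposited 1 table of expected counts per cell with cluster, region and facility. The deposited values were whole in Aachen and Bonn, while 0.118% of nonzero Hamburg values were, for a reason not given in the sources used here. They were treated as estimated counts, and the sums per class and library were rounded after summing. For thinning, doublet calling and the removal of cells by markers of another lineage, values were instead rounded within each cell first.

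Counts were summed per class and library (20 or more cells), filtered with filterByExpr, scaled by TMM and tested with edgeR 4.0.16 (quasi-likelihood, R 4.3.3; dataset as block, since libraries of a dataset share facility and kit), Benjamini-Hochberg over all genes tested, threshold 0.05. Standard errors are the log2 fold change over the root of F, and edgeR can bound p, so they need not match exactly. DESeq2 1.42.0 was an alternative. In simulated data on the resident macrophage comparison (8228 genes), 43% of 2-fold and 84% of 4-fold changes were recovered, with 6 false of 133 calls. The simulation gave every gene the same spread and every library the average profile of its dataset. It held no change of cluster make-up between regions, so the real comparison can have other rates.

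No doublets were removed for the results given first. Scrublet, run in scanpy 1.11.5, called 339 cells (1.67%), only 13 of 6961 in Hamburg, where it was not taken to have worked. Calls were also few in Aachen, at 3 to 10 per barcode suffix, for example 3 of 2360 cells of an OM suffix. Bonn had 212 of 3664 in cortex, 7 of 621 in OM and 73 of 1873 in IM, so most called doublets were Bonn cells. Resident macrophages were Macrophage_1, Macrophage_2, Macrophage_3 and Isg+_Macrophage. All 10 members are named, of the lists the genes past the threshold, and per member the 3 genes most like it; 2 genes that these rules name are not reported here. Tln1, Fermt3, Icam1, Vcam1, Thy1, Clec9a, Wdfy4 and Itgae of cDC2 were named after their values were seen. Members and lists were chosen with earlier results of these data known. Positions come from GENCODE, promoters from RefSeq.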

Additional observations from a re-analysis of the deposited data

Results flagged for a closer look

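Itga4 was noted because its regional difference was not the same in 2 classes: medulla against cortex in resident macrophages minus that in NK cells was -1.33 (log2, edgeR adjusted p = 0.0459), from -0.54 in macrophages and 0.83 in NK cells. The adjusted p lay close to the threshold, and the joint fit was not repeated under any other setting. The pair with NK cells was not planned, and Itga4 was the member already called in that class.

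A second column of the table, Itgam.1, is not among the members and was noted because it held counts: 26 UMIs in Aachen (12 in cortex, 4 in OM and 10 in IM), beside 131 of Itgam there, and 0 in Bonn and Hamburg. Which gene model it stands for is not given in the sources used here. Added to Itgam, it changed no call.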

How the results depend on the processing

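Of 270 recomputed counts of members called, 227 stayed within 1.5 times the value given. In resident macrophages the 2 calls became 1 with DESeq2, 4 without the filter on low counts, 0 to 4 with a dataset or library left out (without Aachen IM, Itga4 at -0.62 and Itgb7 at -1.03 were added, and without the Aachen dataset Itga4 at -0.69), 1 without doublets and cells of another lineage, and 1 with Malat+_Macrophage added. For OM against cortex the 0 calls became 3 without the filter, 0 to 3 with a library or dataset left out, 2 with cells thinned to 500 UMIs and 2 without doublets; for IM they became 2, 0 to 3, and 1 without doublets. In NK cells the 1 call became 0 with DESeq2, 0 when thinned and 0 to 2 with a library or dataset left out. In Macrophage_1 it became 0 when thinned and 0 without doublets. In cDC2 the 0 calls became 1 without the filter and 0 to 1 with a library or dataset left out, the call being Itgae.

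Without the dataset as a block, which pairs libraries by facility and kit, 0 members were called in resident macrophages, 0 in NK cells and 0 in Macrophage_1, with Itgax at -1.29, Itgal at -0.95, Itga4 of NK cells at 0.59 and Itgax of Macrophage_1 at -1.48; the OM and IM calls of Macrophage_1 and the OM call of NK cells were also lost. Thinned, Itgax of resident macrophages was at -1.31 (edgeR adjusted p = 0.14) and Itgal at -0.62 (0.79), while Itgav (-1.01, 0.043) and Itgb7 (-1.41, 0.042) passed. The cause was not tested, but thinning also lowers the counts.

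Signs turned for estimates near 0 and for 2 larger ones. Those near 0 were Itgam of resident macrophages (0.24 thinned, 0.29 in Macrophage_2, -0.41 to 0.10 with a library or dataset left out), Itga6 (-0.13 without doublets, -0.036 in Macrophage_2, -0.014 to 0.33) and Itgb1 (-0.045 thinned, -0.26 in Macrophage_2, -0.076 in Isg+_Macrophage, -0.053 to 0.17). The larger ones were Itga4 of resident macrophages (-0.54, but 0.10 in Macrophage_2) and Itgam of NK cells (0.72, but -0.25 to 1.14 with a library or dataset left out). The neutrophil level of Itgam was 3.72 when thinned. Aachen, with the fewest UMIs per cell, limits every low count.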
